A study of Mus musculus with 8 samples.

Results

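The transcripts of 43 genes of adult skeletal muscle were followed through 8 tumour arrays. The genes form the thick and thin filaments, the Z-disc, the calcium release system and the energy metabolism of muscle fibres. They are known muscle genes, and the set was chosen after signals of these arrays had been seen, so that their height on single arrays is a description here. Of the 43 genes, 42 were found on the array by gene symbol, among 18194 genes in all, and Xirp2 was not analysed here. One probe set, the group of probes that together report on 1 transcript, was used per gene, namely the one with the highest mean of log2(signal + 16) over the 8 arrays.

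The tumours grew from MOPC cells, a murine oropharyngeal carcinoma line, after subcutaneous injection into Tlr3/7/9-/- (KO) mice and C57BL/6 wild-type (WT) mice. All hosts received the same MOPC cells and no other agent is named in the labels. The KO hosts lacked the endosomal receptors Tlr3, Tlr7 and Tlr9, which sense nucleic acids, while the tumour cells were not deleted for them. Tumours were taken at day 6 and day 4 after inoculation, with 2 arrays of KO and 2 of WT hosts at each day, and the day 6 hosts were 8 to 16 weeks old. Tumour pieces were minced whole, so an array holds RNA of the carcinoma, of its stroma and of any tissue taken with it. Whether the day 4 replicates were separate animals is not stated, and p-values there measure only the spread between samples, which may be technical. All groups shared 1 estimate of the spread of a gene, so p-values at day 6 rest on the day 4 samples too. Values of a group are given for replicate 1 and then replicate 2.

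Skeletal muscle fibres shorten when myosin of the thick filament pulls on actin of the thin filament, after calcium has bound to the troponin complex. Fast and slow fibres build this machine from different genes for the same parts, so that a fast and a slow troponin or myosin can be told apart at the RNA level. Fast fibres are further divided by the myosin heavy chain they use, and Myh4, Myh1 and Myh2 mark the types 2B, 2X and 2A. Beneath the skin of the mouse trunk lies a thin sheet of striated muscle, the panniculus carnosus, and deeper lies the muscle of the body wall.

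Muscle promoters often carry E-boxes, which bind myogenic factors such as MyoD, sites of the factor MEF2, and CArG boxes, which bind serum response factor. Promoter windows of 250 bases before to 50 bases after the start of transcription, from RefSeq on GRCm38.p6, were found for 33 of the 43 genes, in 40 windows. The 4 windows printed here belong to Myh1 and Myh4, fast myosins whose order between arrays differed, to Acta1, the actin of skeletal muscle, and to Tnni1, a slow troponin that did not follow the others. Myh1 lies at chr11:67199852-67200151 (plus strand), Myh4 at chr11:67237562-67237861 (plus strand), Acta1 at chr8:123894726-123895025 (minus strand) and Tnni1 at chr1:135799171-135799470 (plus strand). Capitals mark the E-box CANNTG, the MEF2 site, the CArG box and the TATA box TATAAA, searched on both strands.
Myh1: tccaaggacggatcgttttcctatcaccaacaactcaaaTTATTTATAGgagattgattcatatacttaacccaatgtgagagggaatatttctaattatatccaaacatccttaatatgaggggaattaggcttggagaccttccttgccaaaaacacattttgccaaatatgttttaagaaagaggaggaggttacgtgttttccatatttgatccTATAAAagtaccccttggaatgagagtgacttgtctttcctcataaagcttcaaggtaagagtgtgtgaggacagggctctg
Myh4: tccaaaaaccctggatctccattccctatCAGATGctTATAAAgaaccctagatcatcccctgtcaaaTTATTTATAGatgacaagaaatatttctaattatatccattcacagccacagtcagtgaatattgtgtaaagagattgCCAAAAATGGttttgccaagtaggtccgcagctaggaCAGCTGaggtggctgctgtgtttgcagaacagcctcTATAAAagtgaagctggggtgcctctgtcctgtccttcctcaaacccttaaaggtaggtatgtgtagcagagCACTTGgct
Acta1: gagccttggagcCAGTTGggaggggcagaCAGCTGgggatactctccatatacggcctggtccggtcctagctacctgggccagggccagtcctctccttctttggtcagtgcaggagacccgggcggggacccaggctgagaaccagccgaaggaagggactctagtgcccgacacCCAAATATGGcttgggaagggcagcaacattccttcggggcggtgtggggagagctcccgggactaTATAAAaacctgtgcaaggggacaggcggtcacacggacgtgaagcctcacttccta
Tnni1: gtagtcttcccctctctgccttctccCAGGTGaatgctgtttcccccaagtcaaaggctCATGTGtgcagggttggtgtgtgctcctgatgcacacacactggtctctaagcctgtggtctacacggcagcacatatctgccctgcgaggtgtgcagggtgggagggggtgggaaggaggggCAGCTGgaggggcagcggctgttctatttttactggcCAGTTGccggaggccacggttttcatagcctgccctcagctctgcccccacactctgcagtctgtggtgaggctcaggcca

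In both Myh1 and Myh4, the MEF2 match overlapped a TATAAA match, and a further TATAAA lay nearer to the start. The window of Myh4 also held a CArG match and 3 E-boxes, and that of Myh1 neither. The window of Acta1 held a CArG match, 2 E-boxes and a TATAAA, and that of Tnni1 held 4 E-boxes and none of the other letters. A MEF2 match was found in 15% of the 40 windows, against 3.19% of the 32851 windows of all promoters in the table. For CArG the shares were 10% and 1.63%, for TATAAA 17.5% and 13.6%, and for the E-box 82.5% and 72.3%. A match is a run of letters, not a site shown to be bound, and windows of 1 gene can overlap.

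Muscle transcripts were abundant on 3 of the 8 arrays and low on the other 5. The 3 were KO day 6 replicate 2, KO day 4 replicate 2 and WT day 4 replicate 2, from both genotypes and both days. On these 3 arrays 30 of the 42 genes were higher than on any of the other 5, a pattern held by 1.9% of all genes measured. The order, with WT day 4 replicate 2 highest, KO day 6 replicate 2 next and KO day 4 replicate 2 after it, was that of 24 of the 42 genes and of 0.583% of all genes measured. Over the 8 arrays the log2 range had a median of 5.31 for the 42 genes and of 0.97 for all genes measured.

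The median of the 42 genes, each set against its own mean over the arrays, was 2.47 in KO day 6 replicate 2, 1.07 in KO day 4 replicate 2 and 2.80 in WT day 4 replicate 2 on the log2 scale. On the other 5 arrays it lay between -1.41 and -1.05. The 3 high arrays are all numbered replicate 2, but the fourth array of that number, WT day 6 replicate 2, was at -1.39, and the labels do not say what a number shares. In bulk tissue, a change in the number of muscle fibres and a change in RNA per fibre cannot be told apart.

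**Figure D1:**
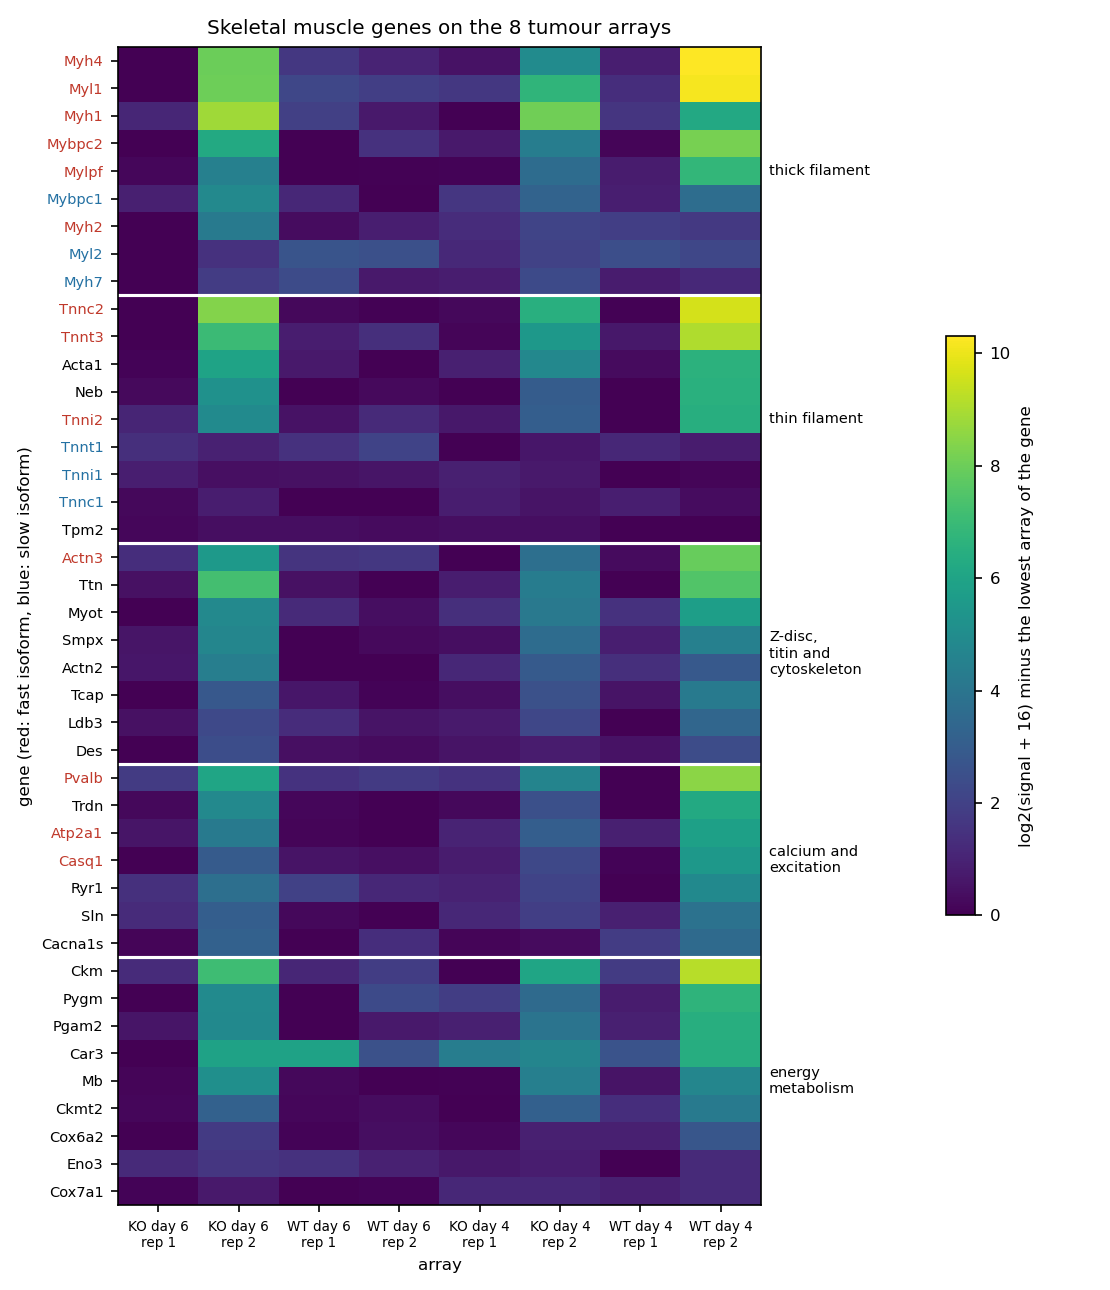
Each row is 1 of the 42 muscle genes, grouped by role, and each column 1 array. Colour gives log2(signal + 16) minus the lowest array of that gene, and red and blue names mark fast and slow isoforms. The columns of KO day 6 replicate 2, KO day 4 replicate 2 and WT day 4 replicate 2 stand out, and the rows of Tpm2, Tnni1 and Tnnc1 stay dark throughout.

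Among the genes of the thin filament, Acta1 encodes its actin. Acta1 had signals of 359 and 22022 in KO day 6 tumours, against 559.7 and 336 in WT day 6 tumours. At day 4 its signals were 653 and 9824 in KO tumours, against 423 and 34992 in WT tumours. The highest of the 5 low arrays was 653, below each of the 3 high ones by 3.88 or more on the log2 scale. Tnnc2, the calcium-binding subunit of fast troponin, had signals of 7.3 and 7794 in KO day 6 tumours, against 11.5 and 8.4 in WT day 6 tumours, and of 11.4 and 2084 in KO day 4 tumours, against 8.2 and 18266 in WT day 4 tumours. Between the 2 arrays of WT day 4 it differed by 9.56 on the log2 scale, which was the greatest such difference of all genes measured. Tnnt3, fast troponin T, which holds the troponin complex on tropomyosin, had signals of 7.0 and 2968 in KO and 24.9 and 44.0 in WT tumours at day 6, and of 9.3 and 1007 in KO and 20.8 and 12227 in WT tumours at day 4. Tnni2, the inhibitory subunit of fast troponin, was at 284 and 4307 in KO and 186 and 314 in WT tumours at day 6, and at 206 and 1190 in KO and 126 and 12490 in WT tumours at day 4. All these genes took the same order of arrays, and so did Neb, which encodes the giant ruler protein of the thin filament and reached 1497 in WT day 4 replicate 2.

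The slow troponins and the probe set used for Tpm2 did not follow. Tnni1, the slow inhibitory subunit, had signals of 261 and 182 in KO day 6 tumours, against 191 and 206 in WT day 6 tumours, and of 265 and 225 in KO day 4 tumours, against 134 and 148 in WT day 4 tumours. Tnnc1, the calcium-binding subunit of slow and cardiac troponin, was at 174 and 273 in KO and 147 and 149 in WT tumours at day 6, and at 270.5 and 222 in KO and 278 and 188 in WT tumours at day 4. Tnnt1, slow troponin T, was at 177 and 128 in KO and 187 and 297 in WT tumours at day 6, and at 57.8 and 99.2 in KO and 146 and 113 in WT tumours at day 4. For none of these troponins were the 3 arrays of high Acta1 the 3 highest. Tpm2, a beta-tropomyosin that many cells other than muscle also make, had the smallest range of all 42 genes, 0.39 on the log2 scale. Its signals were 10967 and 12520 in KO day 6 tumours, against 12612 and 12019 in WT day 6 tumours, and 12499 and 12527 in KO day 4 tumours, against 9678 and 9653 in WT day 4 tumours. Another probe set of Tpm2 did vary, with 1761 and 3578 in KO and 2760.1 and 1825 in WT tumours at day 6, and 1546 and 2702 in KO and 1154 and 4166 in WT tumours at day 4. A further one took the order of Acta1, with 404.5, 331 and 249 on the 3 high arrays and 243 or below elsewhere. The remaining one had a range of only 0.43.

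The genes of the thick filament had the widest ranges. Myh4, the myosin heavy chain of type 2B fibres, had signals of 1.0 and 4317 in KO day 6 tumours, against 38.7 and 19.1 in WT day 6 tumours, and of 7.9 and 520.4 in KO day 4 tumours, against 14.6 and 21403 in WT day 4 tumours. Its range of 10.3 on the log2 scale was the widest of the 42 genes. Myh1, of type 2X fibres, had signals of 22.4 and 7927 in KO day 6 tumours, against 52.5 and 13 in WT day 6 tumours, and of 1.6 and 4648 in KO day 4 tumours, against 36.5 and 1303 in WT day 4 tumours. The same 3 arrays were high, but Myh1 was highest in KO day 6 replicate 2 and lowest of the 3 in WT day 4 replicate 2. Myh2, of type 2A fibres, had signals of 7.9 and 434 in KO and 14.7 and 27.6 in WT tumours at day 6, and of 43.2 and 86.1 in KO and 73.2 and 61.5 in WT tumours at day 4. Only KO day 6 replicate 2 stood clear of the other arrays for Myh2. Myh7, the slow heavy chain, also used by the heart, was between 8.4 and 108 on every array and reached its maximum in WT day 6 replicate 1.

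The light chains and binding proteins showed the same division. Myl1, a light chain of fast fibres, had signals of 6.0 and 5733 in KO and 83.4 and 65.7 in WT tumours at day 6, and of 53.6 and 2333 in KO and 39.4 and 25201 in WT tumours at day 4. Mylpf, the regulatory light chain of fast fibres, was at 147 and 3216 in KO and 127 and 135 in WT tumours at day 6, and at 135.5 and 1748 in KO and 233 and 15956 in WT tumours at day 4. Both took the order of Acta1. Myl2, the slow and ventricular regulatory light chain, was at 7.9 and 50.6 in KO and 137 and 122 in WT tumours at day 6, and at 38.4 and 80.7 in KO and 117 and 93.7 in WT tumours at day 4, with its maximum on an array where Acta1 was low. Mybpc2, the fast form of myosin-binding protein C, had signals of 5.5 and 1619 in KO and 5.2 and 43.2 in WT tumours at day 6, and of 18.1 and 422 in KO and 7.4 and 6125 in WT tumours at day 4. Mybpc1, its slow form, which fast fibres can also express, was at 41.3 and 859 in KO and 52.8 and 14.8 in WT tumours at day 6, and at 78.1 and 281 in KO and 39.6 and 377 in WT tumours at day 4. It was the only slow isoform of 6 with the 3 high arrays on top.

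**Figure D2:**
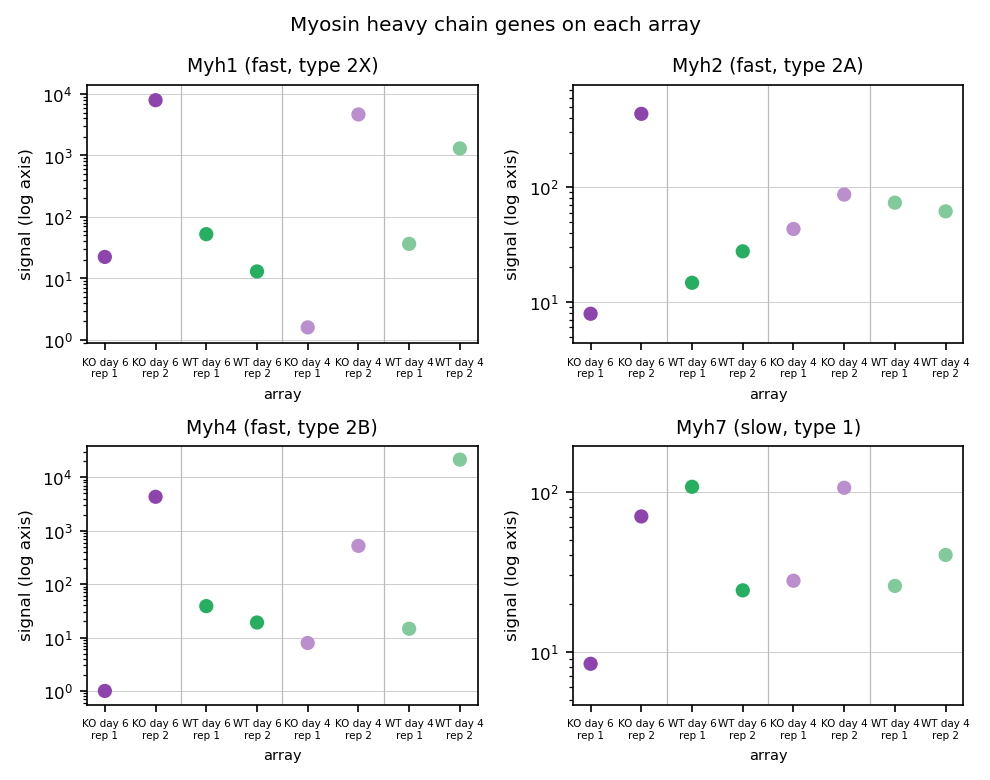
Signal of 4 myosin heavy chain genes on each of the 8 arrays, on a log axis, with 1 point per array. Myh1 and Myh4 are high on the same 3 arrays in a different order, Myh2 stands out at 434 in KO day 6 replicate 2, and Myh7 stays at 108 or below.

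At the Z-disc, which anchors the thin filaments, all 8 genes measured had their highest signals on the 3 arrays. Actn3, the alpha-actinin of fast fibres, had signals of 60 and 1343 in KO and 71.4 and 79.5 in WT tumours at day 6, and of 13.7 and 383 in KO and 20.4 and 7113 in WT tumours at day 4. Ttn, which encodes the spring protein titin, was at 16 and 3464 in KO and 15.8 and 7.1 in WT tumours at day 6, and at 24.8 and 441 in KO and 7.1 and 4164 in WT tumours at day 4. Myot, the Z-disc protein myotilin, was at 2.5 and 520.3 in KO and 27.8 and 8.4 in WT tumours at day 6, and at 32.4 and 318 in KO and 35.8 and 999 in WT tumours at day 4. For Ttn, the arrays KO day 6 replicate 2 and WT day 4 replicate 2 differed by only 0.26 on the log2 scale, less than for Actn3 at 2.39. Des, the intermediate filament desmin, which smooth muscle also makes, had the smallest range of the group. Its signals were 469 and 2579 in KO and 632 and 577 in WT tumours at day 6, and 682 and 816 in KO and 666 and 2562 in WT tumours at day 4. The 5 low arrays lay between 469 and 682, so KO day 4 replicate 2 was hardly above them. Actn2, Tcap, Ldb3 and Smpx had ranges of 4.40, 4.21, 3.41 and 4.75.

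Genes of calcium handling and excitation behaved alike, with 6 of 7 in the order of Acta1. Pvalb, the calcium buffer parvalbumin of fast fibres, had signals of 97.2 and 2116 in KO and 77.0 and 92.0 in WT tumours at day 6, and of 74.8 and 794 in KO and 16.3 and 11788 in WT tumours at day 4. Trdn, triadin of the calcium release unit, was at 6.4 and 544 in KO and 6.0 and 3.4 in WT tumours at day 6, and at 6.8 and 93.6 in KO and 3.9 and 1458 in WT tumours at day 4. Atp2a1, the calcium pump of fast fibres, was at 117 and 1609 in KO and 82.5 and 73.0 in WT tumours at day 6, and at 165 and 729 in KO and 153 and 5081 in WT tumours at day 4. The exception was Cacna1s, the voltage sensor of the muscle membrane. It was at 14.1 and 236 in KO and 11.2 and 52.4 in WT tumours at day 6, and at 13.6 and 17.2 in KO and 81.6 and 309 in WT tumours at day 4, so that KO day 4 replicate 2 did not stand out. Casq1, the calcium store protein, Ryr1, the release channel, and Sln, an inhibitor of the calcium pump, reached 3332, 1203 and 295, each in WT day 4 replicate 2.

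In energy metabolism, Ckm, the creatine kinase of muscle, had signals of 64.9 and 4550 in KO and 56.1 and 108 in WT tumours at day 6, and of 17.6 and 2196 in KO and 100.5 and 19605 in WT tumours at day 4. Pygm, the glycogen phosphorylase of muscle, was at 3.6 and 578 in KO and 3.5 and 80.8 in WT tumours at day 6, and at 55.2 and 216 in KO and 17.8 and 2019 in WT tumours at day 4. Pgam2, a glycolytic mutase of muscle, was at 45.7 and 1195 in KO and 25 and 50 in WT tumours at day 6, and at 61.1 and 628 in KO and 60.9 and 3602 in WT tumours at day 4. These 3 enzymes took the order of Acta1. Mb, the oxygen store myoglobin, was at 7.7 and 739 in KO and 9.1 and 5.6 in WT tumours at day 6, and at 6.7 and 449.8 in KO and 15.5 and 548 in WT tumours at day 4, with KO day 6 replicate 2 on top. Eno3, the enolase of muscle, was between 4804 and 15026 on every array and had a range of only 1.64.

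Of the 9 genes of energy metabolism measured, 5 had the 3 high arrays on top. Cox6a2 reached 1641 in WT day 4 replicate 2 and 805.5 in KO day 6 replicate 2. In KO day 4 replicate 2 it was at 439, just below the 447 of WT day 4 replicate 1. Another probe set of Cox6a2 had the 3 high arrays on top. Cox7a1 and Car3 went their own ways. Cox7a1, a subunit of cytochrome c oxidase, was at 244 and 377 in KO and 224 and 242 in WT tumours at day 6, and at 517 and 516 in KO and 438 and 542 in WT tumours at day 4, so that all 4 arrays of day 4 lay above all 4 of day 6. Car3, the carbonic anhydrase of slow fibres and of adipocytes, was at 249 and 16050 in KO and 16025 and 1548 in WT tumours at day 6, and at 5494 and 6824 in KO and 1652 and 22822 in WT tumours at day 4. In WT day 6 replicate 1 the Car3 signal was thus nearly that of KO day 6 replicate 2, although Acta1 was at 559.7 there. Another probe set of Car3 gave the same picture, with 119.5 and 2068 in KO and 2262 and 341 in WT tumours at day 6, and 838 and 1182 in KO and 279.5 and 4625 in WT tumours at day 4. Adipoq, the adipocyte hormone adiponectin, was at 76.0 and 161 in KO and 2044 and 136 in WT tumours at day 6, and at 812 and 539 in KO and 331 and 3174 in WT tumours at day 4. Over the 9 adipocyte genes measured, the summed signal was 6516 and 7106 in KO and 18070 and 10900 in WT tumours at day 6, and 12330 and 9670 in KO and 11470 and 24820 in WT tumours at day 4. This sum was highest on the WT arrays with the most Car3, WT day 4 replicate 2 and WT day 6 replicate 1, but not in KO day 6 replicate 2. The part of fat in the Car3 signal was not tested.

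**Figure D3:**
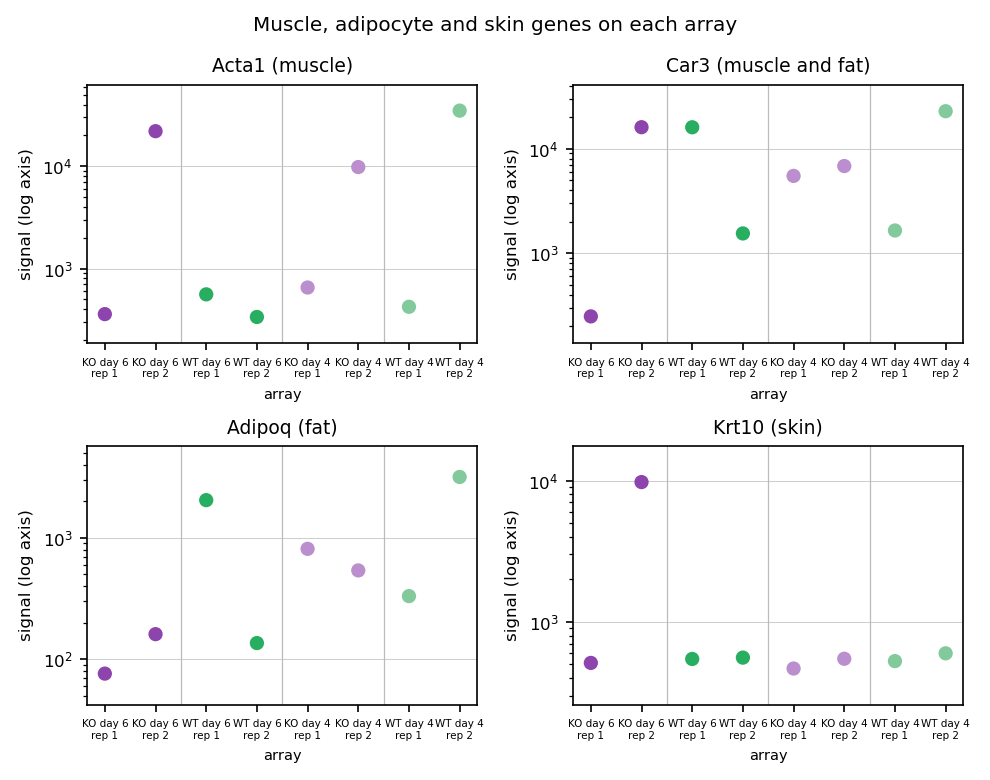
Signal of Acta1, Car3, Adipoq and Krt10 on each of the 8 arrays, on a log axis, with 1 point per array. Car3 is at 16050 in KO day 6 replicate 2, with an Acta1 signal of 22022, and at 16025 in WT day 6 replicate 1, with an Adipoq signal of 2044, and Krt10 stands out at 9762 in KO day 6 replicate 2 alone.

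Other tissues were looked for on the arrays rich in muscle transcripts. Of the 13 genes of cornified skin measured, 10 were over 2-fold higher in replicate 2 than in replicate 1 of KO day 6, and their summed signal was 38060 in KO day 6 replicate 2, against 2657 to 5105 on the other 7 arrays. Of 9 measured genes of squamous epithelium and its carcinomas, 6 were over 2-fold higher in replicate 2 of KO day 6, with a summed signal of 69440 there, against 29160 to 38040 on the other 7 arrays. Among them were the basal keratin Krt5, at 62.1 and 6009 in KO day 6, and the galectin gene Lgals7, at 203 and 8096. Skin and squamous transcripts were thus high together with the muscle genes on that array, while in KO day 4 replicate 2 and WT day 4 replicate 2 the skin sums were 5105 and 4546 and the squamous sums 29160 and 31390. The 10 leukocyte genes had summed signals of 67830 to 93410 and the 8 fibroblast genes of 152400 to 219100 on the 8 arrays. Such sums mostly reflect the brightest genes, and single genes could differ more. The leukocyte gene S100a8 was at 5636 and 297 in WT day 4. The median of the 10 leukocyte genes, each set against its own mean, was 0.09 and 0.46 there on the log2 scale. The part of these tissues in the muscle signals was not tested. Of the 6 heart genes measured, the atrial myosin Myh6 lay between 2.6 and 30.0 and the cardiac troponin Tnni3 between 3.7 and 50.4, while the peptide hormone gene Nppb lay between 819.5 and 2344. Pax7, which marks satellite cells, the stem cells of muscle, lay between 5.1 and 31.0.

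The 2 arrays of a group were then compared gene by gene, since this sets arrays of the same genotype and day side by side. In KO day 6, 36 of the 42 genes were over 2-fold higher in replicate 2 than in replicate 1, against 6.11% of all genes measured. In KO day 4 there were 29, against 4.99%, and in WT day 4 there were 34, against 6.71%. In WT day 6, 3 (7.14%) were higher by that fold, against 4.47% of all genes measured, and 4 (9.52%) were lower, against 4.24%. The medians of the 42 differences were 4.04 in KO day 6, -0.09 in WT day 6, 2.11 in KO day 4 and 4.23 in WT day 4 on the log2 scale, against 0.04, -0.01, 0.02 and 0.02 for all genes measured. Among the 12976 genes bright enough to be fitted, 33 of them from the set, the 50 with the greatest excess of replicate 2 over replicate 1 were taken. Of these, 21 in KO day 6, 18 in KO day 4 and 24 in WT day 4 were muscle genes of the set, against 1 in WT day 6. Brightness was the mean over all 8 arrays. Genes such as Tnnc2, at 11.5 or below on the 5 low arrays, thus entered through the arrays where they were high, which favours these counts. These are differences between single arrays, without a test.

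Fast and slow isoforms of the same part were compared in 6 pairs, namely Myh7 with Myh4, Myl2 with Mylpf, Tnnt1 with Tnnt3, Tnni1 with Tnni2, Tnnc1 with Tnnc2 and Mybpc1 with Mybpc2. For each, the difference between replicate 2 and replicate 1 was taken for the slow and for the fast gene. The fast difference was then subtracted from the slow difference. The brightness of the probes cancels only in part, because the log2 scale used understates changes of low signals. Both kinds had low signals, with slow Myh7 at 108 or below on every array and fast Tnnc2 at 11.5 or below on the low arrays. In KO day 6 the fast gene differed more in all 6 pairs, with a median of -5.25 on the log2 scale. In KO day 4 the median was -2.86 and in WT day 4 it was -7.52, both with 6 of 6 pairs negative. In WT day 6, where the muscle genes did not part the arrays, it was -0.42, with 4 pairs negative and 2 positive. Mybpc1 with Mybpc2 was at -2.64 there, from signals of 52.8 or below. That was further from 0 than the -2.32 of KO day 6 and the -2.03 of KO day 4, so this pair did not set those groups apart. The extremes in WT day 4 were Tnnc1 with Tnnc2 at -10.09 and Mybpc1 with Mybpc2 at -5.22. Of the 13 fast isoforms, 12 had the 3 high arrays on top and 11 in the order of Acta1, and of the 6 slow isoforms 1 and 0 did.

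**Figure D4:**
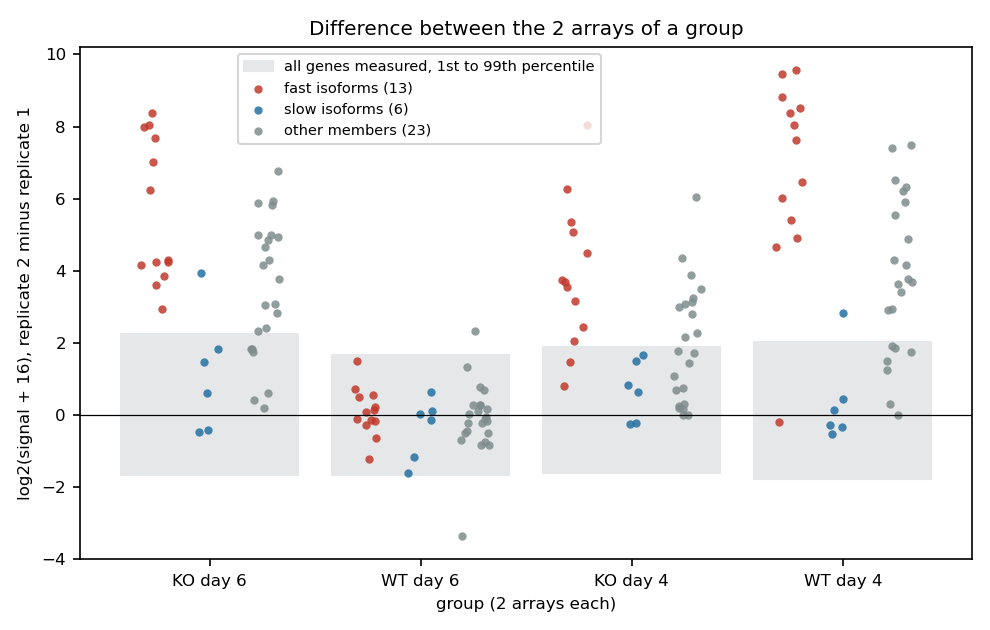
Log2 difference between replicate 2 and replicate 1 in each of the 4 groups, with 1 point per muscle gene (13 fast isoforms, 6 slow isoforms, 23 others) and a grey band from the 1st to the 99th percentile of all genes measured. Fast isoforms lie far above the band in KO day 6 and WT day 4, all 13 and 12 of 13 of them above 1, and around 0 in WT day 6.

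The make-up of the fast transcripts differed between the 3 arrays. In KO day 6 replicate 2 relative to WT day 4 replicate 2, Myh4 differed by -2.31 (higher in the WT array) and Myh1 by 2.59 (higher in the KO array) on the log2 scale, a gap of 4.90 between the genes. Between KO day 4 replicate 2 and WT day 4 replicate 2 the differences were -5.32 for Myh4 and 1.82 for Myh1, a gap of 7.14. Each of the 2 KO arrays thus had a lower Myh4 signal and a higher Myh1 signal than WT day 4 replicate 2. A further probe set of Myh1 gave 7710 in KO day 6 replicate 2, 4106 in KO day 4 replicate 2 and 1208 in WT day 4 replicate 2. The remaining one of Myh1 was low, at 4.2, 45.6 and 14.9 on these arrays, and did not repeat that order. A further probe set of Myh4 gave 91.0, 66.2 and 656. The heavy chain genes are close relatives, and some of their probes may bind more than 1 of them.

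Other genes differed in both directions. In KO day 6 replicate 2, 13 of the 42 genes were higher than in WT day 4 replicate 2, against 6559 of the 12976 genes tested. Among the 13 were 5 of 6 slow isoforms but only 2 of 13 fast ones, Myh1 and Myh2. Of the slow ones, Tnnt1, Tnni1 and Tnnc1 differed by only 0.16, 0.28 and 0.50 on the log2 scale. Actn2, the alpha-actinin of all fibres, differed by 1.53 and Actn3, that of fast fibres, by -2.39. Mb differed by 0.42 and Ckm by -2.10. Mybpc1 differed by 1.16 and Mybpc2 by -1.91. Casq1 and Pvalb had the lowest values, -2.56 and -2.47, and the median of the 42 was -0.97. Against KO day 4 replicate 2, the same array of KO day 6 was higher in 37 of the 42 genes, and in 6702 of the 12976 genes tested. The median of the 42 was 1.14, with gaps of only -0.35 between Mb and Ckm and -0.34 between Mybpc1 and Mybpc2. The gap between Myh1 and Myh4 was -2.25 there. Each of these comparisons sets 1 array against 1.

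**Figure D5:**
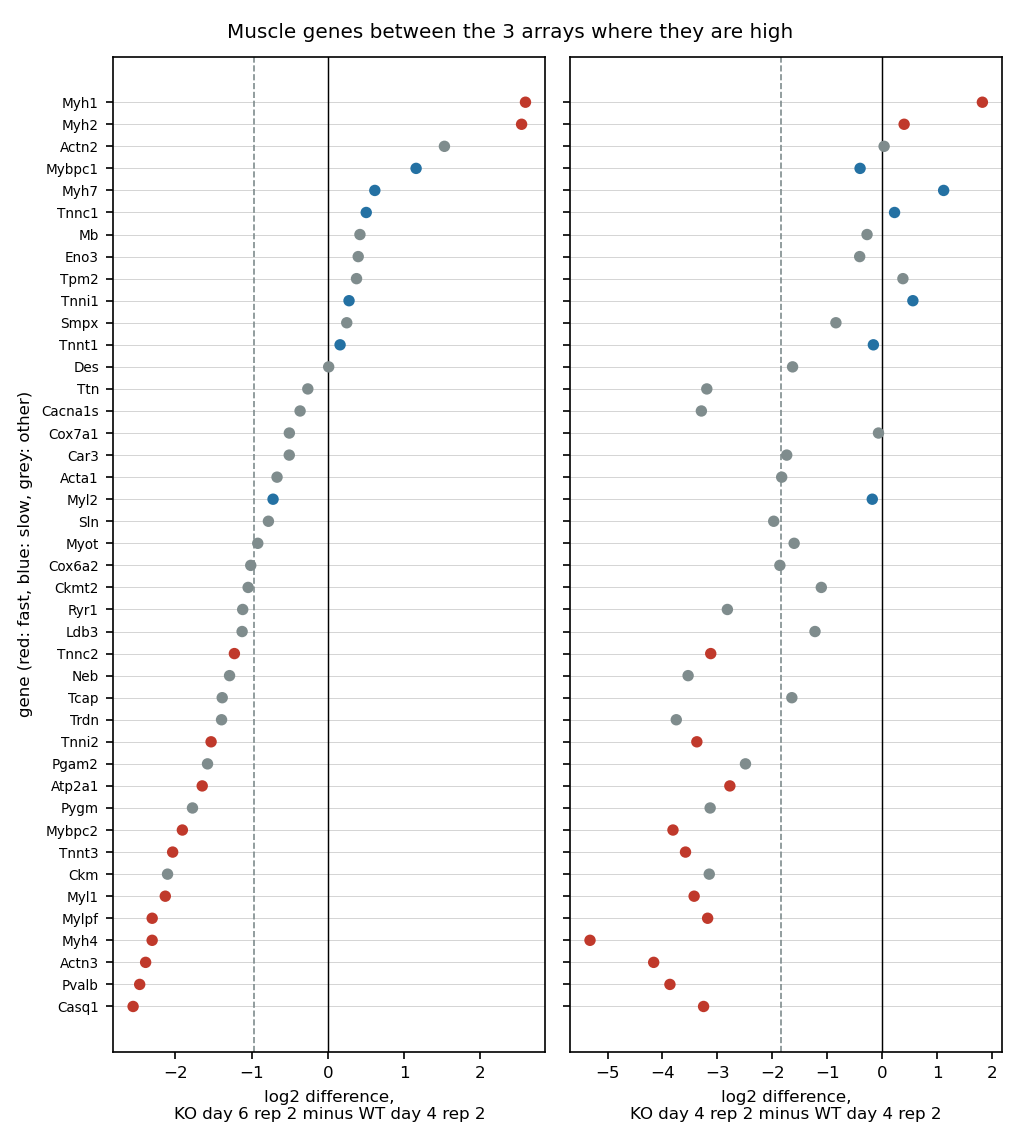
Log2 difference of each of the 42 genes between KO day 6 replicate 2 and WT day 4 replicate 2 (left) and between KO day 4 replicate 2 and WT day 4 replicate 2 (right), with red for fast, blue for slow and grey for other genes and a dashed line at the median (-0.97 and -1.85). Myh1 lies at 2.59 and 1.82 and Myh4 at -2.31 and -5.32, on opposite sides of 0.

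Further genes of adult muscle, listed beside the 43, were less uniform. Of 42 measured, 18 had the 3 arrays on top and 13 in the order of Acta1. Myom2, of the M-band, had 21.7 and 1077 in KO and 13.2 and 44.9 in WT tumours at day 6, and 39.2 and 194 in KO and 3.2 and 1342 in WT tumours at day 4. Csrp3, a stretch-linked LIM protein of slow and cardiac muscle, was instead at 37.0 and 1890.2 in KO and 97.5 and 14.9 in WT tumours at day 6, and at 18.0 and 263 in KO and 7.0 and 7.9 in WT tumours at day 4. It was thus high in KO day 6 replicate 2 and at its low level in WT day 4 replicate 2. Actc1 and Trim63 were listed apart from these 42 genes. Actc1, the cardiac and fetal muscle actin, reached 2345 in WT day 4 replicate 2 and was between 53.6 and 232 on the other 7 arrays. Trim63, a ubiquitin ligase of muscle wasting, was at 718, 121 and 644 in KO day 6 replicate 2, KO day 4 replicate 2 and WT day 4 replicate 2, and at 41.8 or below elsewhere. It is 1 of 7 measured genes listed for muscle atrophy and denervation, which did not follow as a whole. Their median, each gene set against its own mean, was -0.06, 0.25 and -0.03 on these 3 arrays. On the others it was -0.8 to 0.29.

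Of the 15 muscle genes with more than 1 probe set, 31 further probe sets could be set beside those used. Of these 31, 14 had the same 3 arrays on top. All 14 were among the 21 that reached a signal of 100 on some array, a limit that a probe set high on those arrays passes more easily.

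The design compares KO with WT hosts at each day, and the days within each genotype. Of the 42 genes, 33 had a mean that reached the 40th percentile over the probe sets, a signal of 78.6, and were in the limma fit of 12976 genes, and 9 did not (Myh2, Myh7, Myl2, Neb, Trdn, Sln, Cacna1s, Mb and Ckmt2). For KO against WT at day 6, 0 of the 33 were called at an adjusted p under 0.05, against 0.0154% of all genes tested. An unadjusted limma p under 0.05 was found for 0 of the 33 and for 824 of the 12976. At day 4, 0 of the 33 were called, against 0.0154%, and 2 had an unadjusted p under 0.05, against 922 of the 12976. For day 6 against day 4 in KO tumours 0 were called, against 6.23%. There 1 had an unadjusted p under 0.05, against 3385 of the 12976. In WT tumours 1 was called, against 5.83%, and 3 had an unadjusted p under 0.05, against 3321 of the 12976. When the KO effect at day 4 was subtracted from that at day 6, 0 were called, against 0% of all genes tested. For this difference 1 had an unadjusted p under 0.05, against 568 of the 12976. A gene that did not pass is not shown to be equal, because the arrays of a group lay far apart.

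The gene called was Cox7a1, lower at day 6 than at day 4 in WT tumours, with 233 ± 12.3 at day 6 and 490.1 ± 74.1 at day 4 (SD, n = 2 each), a log2 difference of -1.02 (standard error 0.25, limma adjusted p = 0.0496). The call was lost without either array of WT day 6, of WT day 4 or of KO day 4. In KO tumours the log2 difference was -0.74 (standard error 0.25, limma adjusted p = 0.105). Acta1 averaged 11190.0 ± 15320.0 in KO and 448 ± 158 in WT tumours at day 6 (SD, n = 2 each), a log2 difference of 2.67 (standard error 2.31, limma adjusted p = 0.881). At day 4 it averaged 5239 ± 6485 in KO and 17710.0 ± 24440.0 in WT tumours (SD, n = 2 each), a log2 difference of -0.61 (standard error 2.31, limma adjusted p = 0.989). At day 6 the lower KO array lay between the WT arrays, and at day 4 both KO arrays did.

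Over the 33 genes fitted, the median log2 difference between KO and WT tumours was 1.98 at day 6 and -0.92 at day 4, against -0.01 and 0.01 for all genes tested. Single arrays set both. Without KO day 6 replicate 2 the day 6 median was -0.21, and without KO day 6 replicate 1 it was 4.07. Without WT day 4 replicate 2 the day 4 median was 1.47, without WT day 4 replicate 1 it was -3.36, without KO day 4 replicate 2 it was -2.24 and without KO day 4 replicate 1 it was 0.21. For day 6 against day 4 the median was 0.49 in KO and -2.48 in WT tumours, and in WT tumours it was 0.23 without WT day 4 replicate 2 and -4.96 without WT day 4 replicate 1.

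The targeted genes were looked at in every sample. Tlr7 had signals of 80.1 and 10.8 in KO and 471 and 466 in WT tumours at day 6, and of 70.0 and 25.2 in KO and 383 and 673 in WT tumours at day 4. Tlr3 was between 224 and 427 in KO and between 544 and 811 in WT tumours, and Tlr9 between 84.2 and 128 in KO and between 20.8 and 138 in WT tumours. Where the probes lie relative to the deleted exons was not analysed here, so Tlr3 and Tlr9 do not check the labels. Replicate arrays had Spearman correlations of 0.941 to 0.953, and the median signal of an array between 133 and 175.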

How the data were processed

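RNA of subcutaneous MOPC tumours was hybridised to 8 Affymetrix MG-430_2.0 arrays, with 2 arrays of each host genotype at day 6 and at day 4. Groups came from the sample labels. The labels give 200 ng of RNA per array and the methods 250 ng.

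The authors deposited 1 linear signal intensity per probe set. MAS5 is the tool in the submitters' processing notes, without a version. Each array had a 2% trimmed mean of 1000 over its 45101 probe sets, so a signal is relative to the rest of its array. Array number and not depth limits the precision.

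The platform annotation gave 34958 probe sets 1 gene symbol, 932 several and 9211 none, and genes were named only from the first kind. Values were log2(signal + 16), which understates changes of low signals. Genes that reached the 40th percentile entered a limma 3.58.1 fit (R 4.3.3) of 4 groups with a trend, and called at a Benjamini-Hochberg adjusted p under 0.05. The fit was tested on simulated data in which the widest spreads of genes were capped. That test thus did not cover spreads as wide as those of many muscle genes here. Tables used pandas 2.3.3 and numpy 2.4.6 in python 3.11.15, with figures from matplotlib 3.10.9.

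The muscle genes, the other lists and the tests were chosen with earlier results of these data known. Values on every array were given for the slow and fast pairs and, in each of 5 role groups, for the 3 genes with the greatest range over the arrays and the 1 with the smallest. Myh2, Mb, Car3, Eno3, Neb, Cox6a2, Csrp3, Actc1, Trim63, S100a8 and the further probe sets were named after their values were seen. The comparison of single arrays, the Myh1 and Myh4 gaps and the alternatives for Acta1, Myh4 and Cox7a1 were also added then. Alternatives were pseudocounts of 1 and 64, quantile normalization, median centring, other filters, the mean of all probe sets, no trend, the compared groups alone, a replicate block, the methods' t-test and the omission of each array in turn.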

Additional observations from a re-analysis of the deposited data

How the results depend on the processing

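The counts of muscle genes called for KO against WT at either day, and for the difference of the KO effects, were 0 under every alternative run. Day 6 against day 4 in KO tumours gave 1, Eno3, with the compared groups alone. In WT tumours the 1 call, Cox7a1, became 2 with median centring, which added Tpm2, and 0 with no filter, the mean of all probe sets, no trend, the compared groups alone and the methods' t-test after Benjamini-Hochberg, and 0 to 1 when single arrays were left out. Cox7a1 kept its call without either array of KO day 6, and the 1 call without WT day 4 replicate 2 was Eno3. The Cox7a1 log2 difference then lay between -1.17 and -0.87. With the replicate number as a block the count was 0, and over all genes tested 463, against 756 without it. Correlations of the replicate differences between groups were -0.12 to 0.27, with 3 of 6 over 0.1, so the numbers were not taken to pair the samples, and no other call of a muscle gene changed under the block. Median centring moved the median difference of all genes tested between the days to 0.17 in KO and 0.19 in WT tumours, and the genes called to 1342 and 1784, against 809 and 756.

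Leaving out single arrays put the median difference of the muscle genes between -0.21 and 4.07 for KO against WT at day 6, -3.36 and 1.47 at day 4, -1.48 and 2.38 between the days in KO and -4.96 and 0.23 in WT tumours. In the same way Acta1 lay between -0.27 (without KO day 6 replicate 2) and 5.61 at day 6, and between -3.77 and 2.55 at day 4, with 1.33 without KO day 4 replicate 1 and 2.55 without WT day 4 replicate 2. Myh4 lay between -1.37 (without KO day 6 replicate 2) and 6.63 at day 6, and between -7.56 and 1.89 (without WT day 4 replicate 2) at day 4.

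Among the 33 muscle genes tested, those over 2-fold higher in replicate 2 numbered 27 in KO day 6, 2 in WT day 6, 24 in KO day 4 and 28 in WT day 4. The shares over all genes tested were 2.49%, 1.31%, 1.52% and 3.76%. A filter at the 60th percentile, which tests fewer genes, left 9, 0, 6 and 10, and a pseudocount of 64 left 1 in WT day 6. The slow minus fast median in KO day 6 was -6.29 with a pseudocount of 1, -4.62 with 64 and -3.24 with the mean of all probe sets. In KO day 4 it was -3.37 with a pseudocount of 1 and -2.21 with the mean of all probe sets, and in WT day 4 -6.69 with a pseudocount of 64 and -6.47 with the mean of all probe sets. It stayed negative in these 3 groups under all alternatives run. With the mean of all probe sets the gap between Myh1 and Myh4 for KO day 4 replicate 2 was 5.70. Groups of 2 arrays and signals near background limit all these values.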

Other observations

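Among muscle genes not yet described, Nrap, Klhl40, Asb5 and Ankrd2 were brightest in KO day 6 replicate 2, at 704, 695, 800.5 and 345. In WT day 4 replicate 2 they were at 328, 184, 788 and 49.3. Ampd1, the AMP deaminase of fast muscle, and Phkg1, a subunit of phosphorylase kinase, were instead at 116 and 8.5 in KO day 6 replicate 2, against 992 and 278 in WT day 4 replicate 2. Myog, a factor of muscle differentiation, was at 206 in KO day 6 replicate 2 and at 65.2 or below on the other arrays, and Myf6, the factor of mature fibres, was at 244 in WT day 4 replicate 2 and 85.3 in KO day 6 replicate 2. Myh3 and Myh8, the embryonic and perinatal heavy chains, did not exceed 90.6 on any array. These genes were picked after their values were seen, and no test was made.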
